A study of Homo sapiens with 94 samples.

Results

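The expression of 10 target genes of the co-activators YAP1 and TAZ (encoded by WWTR1) was followed in xenograft tumors after 1 oral dose of the TEAD inhibitor K-975. The genes are CRIM1, MYOF, NT5E, F3, FJX1, PTPN14, NUAK2, DOCK5, ASAP1 and ARHGEF17. They were found by gene symbol among 20239 genes of the expression table. All 10 belong to a published signature of YAP/TAZ activity, whose 12 other genes are counted at the end. Every one of the 10 was above 0 in each of the 91 tumors tested. All 10 passed the filter on low values, which asked for 1 FPKM (fragments scaled by transcript length and library total) or more in 4 or more libraries.

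YAP1 and TAZ carry no DNA-binding domain of their own and reach chromatin mainly through the TEAD transcription factors, often at enhancers that also hold AP-1 factors. The Hippo kinases restrain both co-activators, and loss of NF2, a frequent event in pleural mesothelioma, releases them. K-975 is a covalent inhibitor that occupies the palmitate-binding pocket of TEAD factors, so that they are no longer palmitoylated. The 10 targets fall into 3 roles. CRIM1 (a transmembrane protein that binds bone morphogenetic proteins), MYOF (a ferlin of membrane repair), NT5E (CD73, the ectoenzyme that makes adenosine from AMP), F3 (tissue factor, the initiator of coagulation) and FJX1 (the homolog of Drosophila four-jointed) are surface or secreted proteins. PTPN14 (a phosphatase that binds YAP1 and holds it in check) and NUAK2 (an AMPK-related kinase) feed back on the pathway. DOCK5 (a Rac exchange factor), ASAP1 (an ARF GTPase-activating protein) and ARHGEF17 (a guanine nucleotide exchange factor) regulate small GTPases.

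The tumors grew from NCI-H226, an established cell line of pleural mesothelioma with a deletion of NF2, placed under the skin of female SCID mice, which lack mature B and T cells. All 94 mice carried the same line, and each gave 1 tumor. Groups received 30, 100 or 200 mg/kg K-975, the vehicle, or nothing, and tumors were taken in 3 studies at 1 h, 3-6 h or 24 h. The vehicle and 200 mg/kg were given in 20 mL/kg, but 100 and 30 mg/kg in 10 mL/kg, so the vehicle matched only the highest dose in volume. Each group held 5 tumors, except 4 with vehicle at 24 h. In the 3-6 h study each dose, like the vehicle, was given to 2 cage groups of 5 mice, and the labels do not divide the cage groups between 3 h and 6 h. In the 1 h and 24 h studies a treatment was 1 cage group, and the effect of the cage cannot be told apart from that of the treatment.

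Values were FPKM of probe-enriched RNA, which hold no read counts, so the depth in reads is unknown. A relative depth was estimated for each library as the inverse of its values for rarely detected genes, each over the gene's median (0.465 to 1.81 in the 91 libraries tested, without a unit). In addition, genes with 1 FPKM or more were counted per library. There were 11344 to 11665 in 91 libraries and fewer than 10000 in 3, which were left out of the tests: replicate 1 at 200 mg/kg and 1 h, and replicate 5 at 100 mg/kg and replicate 1 at 30 mg/kg at 24 h. The last of these listed 7 of the 10 genes at 0. All 10 mesothelial markers had a median above 1 FPKM (MSLN 255, CALB2 612 and WT1 29.1), although UPK3B, at 0 to 4.05 FPKM, was low. Of the leukocyte markers 0 of 4 did, and their sum was at most 9.55 FPKM. Of the endothelial markers KDR stood at a median of 63.9 FPKM, whereas PECAM1 was at 0 in 79 libraries. Of the fibroblast markers COL1A1, COL3A1 and PDGFRB were high and DCN was at 0 in 31 libraries. The line is human and the host is a mouse, so host vessels, fibroblasts and leukocytes are mouse cells. These markers are human genes, and whether their RNA came from the line or from mouse reads was not tested.

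Promoters of the 10 genes (250 bases before to 50 bases after the start, RefSeq, GRCh38.p14) were searched on both strands for CATTCC, the core of the TEAD motif, and for TGANTCA, the AP-1 motif. The table of promoters held 6 of the genes (MYOF, NT5E, F3, FJX1, PTPN14 and NUAK2), and not CRIM1, DOCK5, ASAP1 and ARHGEF17. CATTCC occurred once in the promoter of PTPN14 and at 2 places in that of NUAK2, against a share of 14.0% of 35116 promoters with at least 1 match. TGANTCA occurred at 2 places in the promoter of F3, against 7.71% of promoters with at least 1. The promoters of MYOF, NT5E and FJX1 held neither run of letters within this window, which leaves out enhancers. The starts used can differ from those of the gene spans given below. The windows of NT5E and PTPN14 lie wholly within their spans, so the sequence before these spans was not searched. The promoters of F3 and NT5E are printed here because both genes passed the test at 24 h, with the AP-1 matches of F3 in capitals and no match in NT5E:
F3, chr1:94541710-94542009, minus strand: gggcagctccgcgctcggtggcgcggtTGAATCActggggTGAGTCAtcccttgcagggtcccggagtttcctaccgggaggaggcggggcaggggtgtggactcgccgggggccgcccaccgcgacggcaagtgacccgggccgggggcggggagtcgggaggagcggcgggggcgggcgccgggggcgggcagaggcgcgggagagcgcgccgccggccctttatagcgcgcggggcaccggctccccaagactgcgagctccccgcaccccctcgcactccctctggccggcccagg
NT5E, chr6:85449833-85450132, plus strand: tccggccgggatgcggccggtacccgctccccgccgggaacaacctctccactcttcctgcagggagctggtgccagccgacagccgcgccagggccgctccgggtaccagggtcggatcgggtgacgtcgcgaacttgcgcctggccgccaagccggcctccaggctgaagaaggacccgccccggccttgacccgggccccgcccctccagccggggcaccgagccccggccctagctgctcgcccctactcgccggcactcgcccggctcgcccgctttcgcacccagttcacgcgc

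The genes lie on 6 chromosomes (GRCh38, positions as in the table). CRIM1 spans chr2:36355926-36551135, MYOF chr10:93306430-93482317, NT5E chr6:85449584-85495791, F3 chr1:94529225-94541800 and FJX1 chr11:35618419-35620868. PTPN14 spans chr1:214348696-214552449, NUAK2 chr1:205302059-205321791, DOCK5 chr8:25184723-25415716, ASAP1 chr8:130052104-130401968 and ARHGEF17 chr11:73308289-73369091. Every one is annotated as protein coding.

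The genes were expressed over a wide range before any exposure to K-975. In the 34 vehicle and untreated tumors CRIM1 (median 314 FPKM, range 268 to 362) and MYOF (295, range 253 to 324) were the highest, with ranges that overlapped. DOCK5 (161, range 133 to 193) and NT5E (159, range 64.8 to 349) followed, then ASAP1 (69.5, range 50.9 to 85.1) and F3 (67.5, range 33.1 to 185). Within each of these pairs the ranges over the 34 tumors overlapped, and the genes were not compared by a test. The order of NT5E and DOCK5 differed by study. The control median of NT5E was above that of DOCK5 at 24 h (283 and 166 FPKM) and below it at 3-6 h (116 and 156 FPKM). ARHGEF17 (33.4, range 24.6 to 44.5), NUAK2 (19.4, range 13.3 to 28.2), PTPN14 (8.35, range 5.70 to 11.0) and FJX1 (3.94, range 1.99 to 5.62) were lower. FPKM are scaled per length of transcript, and the capture of each gene by its probes also enters its level.

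The spread between control tumors also differed by gene. The coefficient of variation was 6.14% for MYOF, 7.22% for CRIM1 and 9.28% for DOCK5, but 45.6% for NT5E and 46.5% for F3. The other genes lay between 13.3% for ASAP1 and 26.8% for FJX1. NT5E and F3 also stood at other levels in the 3 studies. The median of NT5E in controls was 159 FPKM at 1 h (n = 10), 116 at 3-6 h (n = 15) and 283 at 24 h (n = 9). That of F3 was 53.5, 57.3 and 103 FPKM. Both genes were thus highest in the controls of the 24 h study, with ranges that overlapped those of the other studies, and the studies were not compared by a test.

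Tumors that were high in NT5E were also high in F3. Over the 34 control tumors, on the log2(FPKM + 1) scale, Pearson's r was 0.83 and Spearman's coefficient 0.83 (permutation p = 1e-05 for each, the smallest that 100000 resamples can give, and 0.000225 after Benjamini-Hochberg adjustment over 45 pairs of the genes). The resamples shuffled the tumors across the 3 studies, so the p-values over the 34 tumors also take in shifts between the studies. Without the 2 tumors farthest from the median of NT5E, r was 0.85. Within the studies r was 0.88 at 1 h (permutation p = 0.00167), 0.82 at 3-6 h (permutation p = 0.00021) and 0.63 at 24 h (exact permutation p = 0.0686), so the relation did not pass within the 9 tumors at 24 h. Spearman's coefficient within the studies was 0.78 (permutation p = 0.0106), 0.75 (permutation p = 0.0019) and 0.47 (exact permutation p = 0.212). CRIM1 ran the other way. Its r was -0.72 with F3 (Spearman -0.73, permutation p = 2e-05 for each, adjusted 0.0003) and -0.59 with NT5E (Spearman -0.59, permutation p = 0.00032 and 0.00043, adjusted 0.00288 and 0.00387). Without the 2 farthest tumors these r were -0.73 and -0.59, and CRIM1 with F3 gave -0.57, -0.78 and -0.59 within the 3 studies. For CRIM1 with NT5E the within-study r was -0.49, -0.66 and -0.37.

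NT5E with ASAP1 (r 0.75, Spearman 0.76, permutation p = 1e-05 for each, adjusted 0.000225) gave 0.69 without the 2 farthest tumors, and 0.32, 0.86 and 0.64 within the studies. Of the 45 pairs, 13 passed by r (9 positive and 4 negative), and 11 of these also passed by Spearman's coefficient and had 1 sign in all 3 studies. The share of pairs of other genes that would pass was not computed, so these counts have no background to be set against. The levels of NT5E and F3 ran against the summed level of the endothelial markers, which was almost wholly KDR. Over the same 34 tumors r with this sum was -0.70 for NT5E (Spearman -0.70, permutation p = 1e-05 and 2e-05, adjusted over 12 relations 0.00012 and 0.00024) and -0.60 for F3 (Spearman -0.57, permutation p = 0.00019 and 0.00051, adjusted 0.00114 and 0.00306). These p-values too come from tumors shuffled across the studies, and none was computed within a study. Without the 2 farthest tumors the r were -0.67 and -0.52. Within the studies NT5E gave -0.13, -0.67 and -0.84, and F3 -0.19, -0.77 and -0.76, so neither relation was seen at 1 h. The relations of both genes to the fibroblast sum, the leukocyte sum and the relative depth did not pass over the 34 tumors, with the lowest adjusted p at 0.215. Within the studies, however, r with the fibroblast sum changed sign. It was -0.38, -0.58 and 0.66 for NT5E and -0.22, -0.35 and 0.30 for F3, without a test within a study. CRIM1 ran the opposite way with the endothelial sum (r 0.44, permutation p = 0.00997, adjusted 0.0399), although Spearman's coefficient of 0.42 did not pass (permutation p = 0.015, adjusted 0.0601). Without the 2 farthest tumors r was 0.41, and it was 0.12, 0.52 and 0.68 within the studies. The relations of CRIM1 to the other 3 measures did not pass over the 34 tumors. With the fibroblast sum its r was -0.089, 0.50 and -0.50 within the studies. Pairs and relations were chosen after the values had been seen. The endothelial sum is of human genes in tumors of a human line, so it is not taken as a measure of the host's vessels. Its source was not tested. In bulk tumors, fewer cells of a type and less RNA per cell cannot be told apart.

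**Figure D1:**
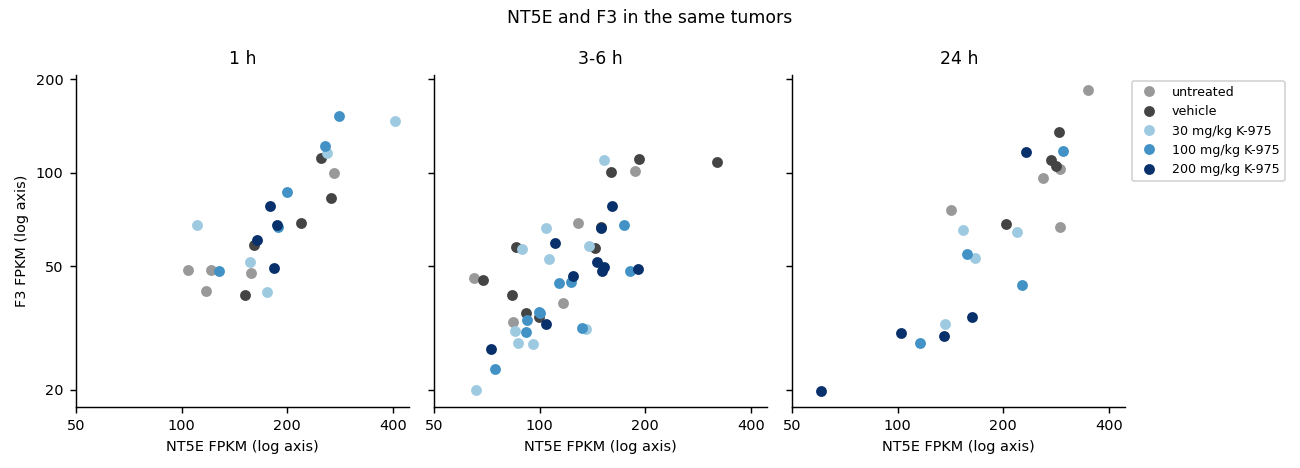
FPKM of F3 against FPKM of NT5E (both log axes) in the 91 tumors, 1 point per tumor, in 1 panel per study and coloured by treatment. The points rise together in each panel, and 4 of the 5 tumors with 200 mg/kg at 24 h lie at the lower left, with F3 between 19.7 and 34.2 FPKM, and 1 at 116 FPKM.

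At 24 h after 200 mg/kg K-975, F3, NT5E and CRIM1 fell. Against vehicle, F3 fell by 62.8%, NT5E fell by 51.3% and CRIM1 fell by 17.5%, from differences on the log2(FPKM + 1) scale. In all, 3 of the 10 genes passed the test (limma over all genes, Benjamini-Hochberg adjusted p below 0.05), where 7.41% of 13036 genes did. All 3 were lower, where 3.61% of genes were called lower. In a fit on only the groups compared, 0 of the 10 passed (adjusted p = 0.0734 for F3, 0.0791 for NT5E and 0.0790 for CRIM1), while 324 of 11657 genes did. With all 94 libraries 0 of 10 passed as well, and under quantile normalization CRIM1 did not (adjusted p = 0.0699). At an unadjusted p below 0.05 the count was 5 of 10, against 21.9% of genes. The 10 genes had a median log2 fold change of -0.20 and 7 of them were negative, while the median of all genes was 0.037 and 44.6% were negative.

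**Figure D2:**
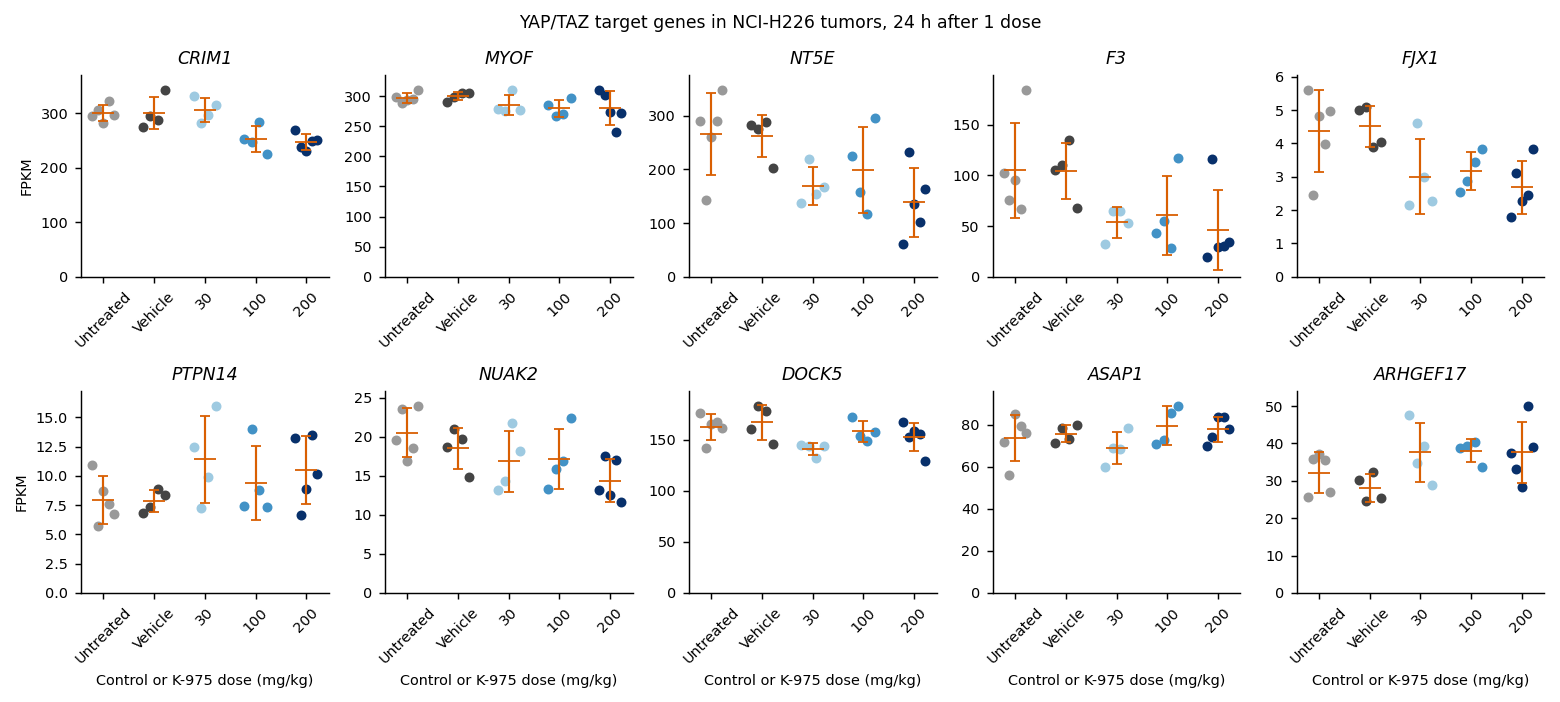
FPKM of the 10 genes in tumors taken at 24 h, 1 point per tumor (n = 4 with vehicle, 30 or 100 mg/kg, and 5 untreated or with 200 mg/kg), with the mean and SD in orange and every axis from 0. The CRIM1 points at 200 mg/kg (230 to 269 FPKM) all lie below the vehicle points (275 to 344 FPKM), whereas for F3 and NT5E 1 tumor remains among them.

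F3 stood at 105, 110.0, 136 and 68.2 FPKM in the 4 vehicle tumors and at 103, 75.8, 95.7, 66.5 and 185 FPKM in the 5 untreated tumors. With 200 mg/kg it stood at 19.7, 116, 29.7, 30.4 and 34.2 FPKM. Of the treated tumors 4 of 5 were below every vehicle tumor, and replicate 2 lay within the vehicle range. The log2 fold change was -1.43 (SE 0.39, 95% interval -2.21 to -0.64, adjusted p = 0.0162). Without replicate 1 at 200 mg/kg the adjusted p was 0.0847, and without vehicle replicate 3 it was 0.0729. At 100 mg/kg, F3 was 43.5, 54.8, 28.3 and 117 FPKM (log2 fold change -0.92, SE 0.42, adjusted p = 0.279), and at 30 mg/kg 32.5, 64.5, 65.4 and 53.2 FPKM (-0.96, SE 0.42, adjusted p = 0.429). All 4 tumors at 30 mg/kg were below all vehicle tumors, yet neither dose passed the test.

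NT5E was 283, 274, 288 and 203 FPKM with vehicle and 291, 142, 260.1, 290.0 and 349 FPKM without treatment. It was 60.4, 232, 136, 102 and 163 FPKM with 200 mg/kg. Again 4 of 5 treated tumors were below every vehicle tumor, and the tumor that stayed within the vehicle range was replicate 2, the same as for F3. The log2 fold change was -1.04 (SE 0.32, 95% interval -1.67 to -0.41, adjusted p = 0.0311). The call was lost without any 1 of 3 vehicle tumors (replicates 1, 2 and 3, adjusted p = 0.0814, 0.0761 and 0.0902) and without replicate 1 (0.169) or 4 (0.0708) at 200 mg/kg. At 100 mg/kg NT5E was 226, 157, 116 and 296 FPKM (-0.47, SE 0.33, adjusted p = 0.554), and at 30 mg/kg 136, 219, 153 and 166 FPKM (-0.64, SE 0.33, adjusted p = 0.520).

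KDR, which made up almost all of the endothelial sum, was 66.2, 25.3, 57.0, 89.8 and 76.1 FPKM in the tumors with 200 mg/kg at 24 h, in the same order, and 42.1, 44.4, 29.5 and 66.4 FPKM with vehicle. Its lowest tumor was thus replicate 2, in which NT5E and F3 were highest. In the same way, replicate 4 at 100 mg/kg had KDR at 23.1, NT5E at 296 and F3 at 117 FPKM. At 30 mg/kg the tumor lowest in KDR (replicate 4, 39.3 FPKM) had NT5E at 153 and F3 at 65.4 FPKM. NT5E was highest there in replicate 3 (219 FPKM), with KDR at 73.7 and F3 at 64.5 FPKM, so this group did not follow for NT5E. VWF (0.689 ± 0.226 with 200 mg/kg, SD, n = 5, and 1.02 ± 0.427 FPKM with vehicle, SD, n = 4) had the lower mean with treatment, whereas KDR (62.9 ± 24.3 and 45.6 ± 15.4 FPKM) had the higher. CDH5 (0.948 ± 0.514 and 0.784 ± 0.185 FPKM) was low in both groups, and the groups overlapped for each of these markers. The summed endothelial markers (26.8 to 92.2 FPKM with 200 mg/kg, 31.0 to 67.8 with vehicle) and fibroblast markers (774 to 1419 and 869 to 1069 FPKM) overlapped between the groups. The mesothelial sum was 3751 to 4624 FPKM with 200 mg/kg and 3243 to 3479 with vehicle, without overlap. In the untreated tumors at 24 h it was 2856 to 4381 FPKM, which overlapped with both groups. The part of these markers in the difference of F3 and NT5E was not tested.

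CRIM1 moved less but more evenly. It was 275, 295, 288 and 344 FPKM with vehicle, 294, 305, 282, 322 and 298 FPKM without treatment, and 269, 238, 230.1, 249.7 and 250.4 FPKM with 200 mg/kg. The treated tumors all lay below the vehicle and the untreated tumors (log2 fold change -0.28, SE 0.072, 95% interval -0.42 to -0.13, adjusted p = 0.0106). Without vehicle replicate 4, the highest, the adjusted p was 0.0774. At 100 mg/kg CRIM1 was 253, 247, 283 and 226 FPKM (-0.25, SE 0.076, adjusted p = 0.0779), and at 30 mg/kg it was 332, 282, 297 and 316 FPKM (0.031, SE 0.076, adjusted p = 0.926). The values at 30 mg/kg were among those of the controls.

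FJX1 was 4.99, 5.10, 3.89 and 4.06 FPKM with vehicle and 1.78, 3.12, 2.29, 2.45 and 3.83 FPKM with 200 mg/kg. The groups did not overlap, but the log2 fold change of -0.60 (SE 0.21, adjusted p = 0.0683) missed the threshold. The untreated tumors (2.44 to 5.62 FPKM) overlapped with both. MYOF was 291 to 306 FPKM with vehicle and 241 to 311 FPKM with 200 mg/kg (-0.11, 95% interval -0.22 to 0.0081, adjusted p = 0.271).

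Neither feedback gene passed at 24 h. NUAK2 was 18.7, 21.0, 19.7 and 14.9 FPKM with vehicle and 13.2, 17.5, 12.6, 17.1 and 11.6 FPKM with 200 mg/kg, with 3 of 5 tumors below every vehicle tumor (-0.35, 95% interval -0.71 to 0.0057, adjusted p = 0.238). PTPN14 had positive differences at each dose, of 0.34, 0.19 and 0.44 from the highest to the lowest dose (adjusted p = 0.253, 0.695 and 0.419). It was 6.84 to 8.89 FPKM with vehicle and 6.67 to 13.5 FPKM with 200 mg/kg, with 3 of 5 tumors above all vehicle tumors.

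Among the GTPase regulators, ARHGEF17 was 30.1, 24.6, 32.3 and 25.4 FPKM with vehicle. It was 37.3, 33.2, 28.3, 50.1 and 39.2 FPKM with 200 mg/kg, above all vehicle tumors in 4 of 5 (log2 fold change 0.39, SE 0.15, adjusted p = 0.0919), and its differences at 100 and 30 mg/kg were 0.43 and 0.39 (adjusted p = 0.173 and 0.377). The untreated tumors, at 25.6 to 37.1 FPKM, overlapped with both groups. DOCK5 (146 to 184 FPKM with vehicle, 130 to 167 with 200 mg/kg) had a log2 fold change of -0.13 (95% interval -0.31 to 0.053, adjusted p = 0.434), and at 30 mg/kg one of -0.24 (adjusted p = 0.386). ASAP1 (71.6 to 79.8 and 69.7 to 83.9 FPKM) had one of 0.035 (95% interval -0.17 to 0.24, adjusted p = 0.889). For both, the groups overlapped.

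At the lower doses at 24 h, 0 of the 10 genes passed, against 1.12% of all genes at 100 mg/kg and 0.0384% at 30 mg/kg. At an unadjusted p below 0.05 there were 3 (14.1% of genes) and 5 (10.0% of genes). The slope of log2(FPKM + 1) over the dose, with vehicle as 0, was called at 24 h for CRIM1 (-0.16 per 100 mg/kg, SE 0.033, adjusted p = 0.000893) and F3 (-0.56 per 100 mg/kg, SE 0.18, adjusted p = 0.0443). These were 2 of 10 genes, against 5.61% of genes called and 3.00% called lower, and 5 of 10 had an unadjusted p below 0.05 (20.0% of genes). The volume differed between the doses that the slope joins, and its part in the slope was not tested. NT5E had a slope of -0.41 (SE 0.14, adjusted p = 0.077). The slope of CRIM1 passed without any 1 tumor, with the adjusted p at most 0.00695. That of F3 was lost in 12 of 17 fits that left out 1 tumor, with the highest adjusted p (0.202) without replicate 1 at 200 mg/kg. It held only without vehicle replicate 4, replicate 2 at 200 or 30 mg/kg, or replicate 2 or 4 at 100 mg/kg.

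**Figure D3:**
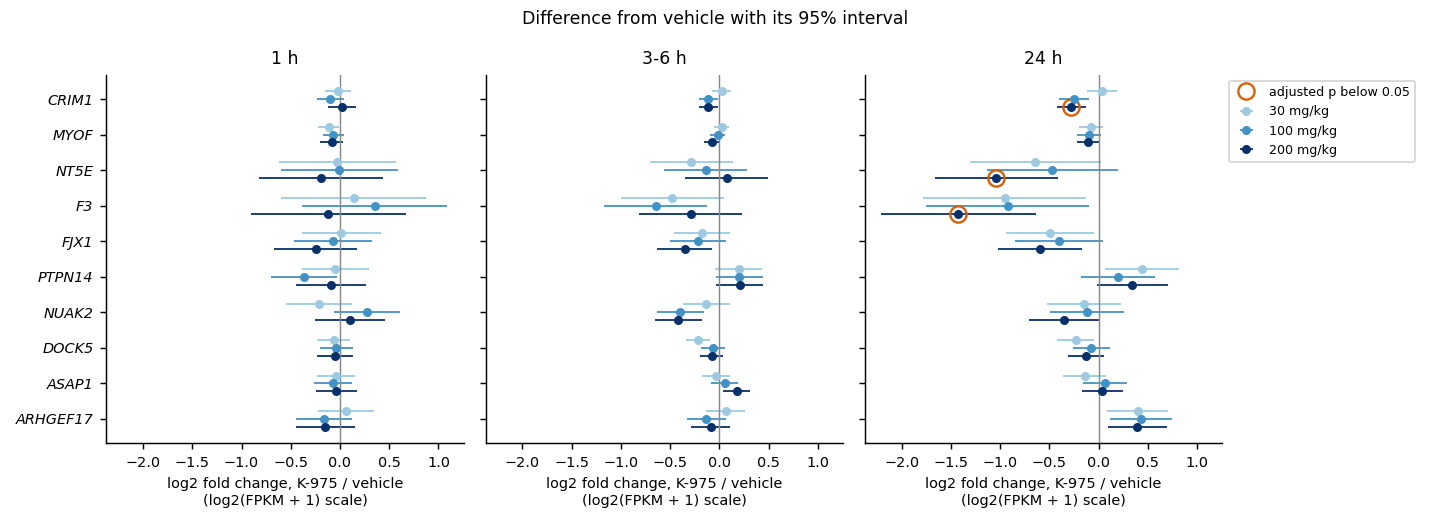
Log2 fold change of K-975 against vehicle on the log2(FPKM + 1) scale (points) with its 95% interval (bars), for the 10 genes in rows, 3 doses in shades of blue and 3 times in panels. The orange circles mark the differences past the threshold, which are CRIM1 (-0.28), NT5E (-1.04) and F3 (-1.43) at 200 mg/kg and 24 h.

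The 3-6 h study had 10 tumors per dose and 10 with vehicle. No gene of the 10 passed at 200 mg/kg (0.0690% of all genes did), 100 mg/kg (0.430%) or 30 mg/kg (0.0153%). At an unadjusted p below 0.05 the counts were 5, 3 and 1 of 10 genes, against 7.23%, 10.3% and 7.03% of all genes. NUAK2 came nearest at the 2 higher doses. It ranged from 13.3 to 28.2 FPKM with vehicle (median 20.2), from 9.77 to 19.1 FPKM with 200 mg/kg (median 14.1), from 10.9 to 19.2 FPKM with 100 mg/kg (median 14.8) and from 11.6 to 27.4 FPKM with 30 mg/kg (median 18.7). All 10 tumors at 200 mg/kg and all 10 at 100 mg/kg lay below the vehicle median, and the ranges overlapped. The log2 fold changes were -0.42 (SE 0.12, adjusted p = 0.162), -0.40 (SE 0.12, adjusted p = 0.133) and -0.13 (SE 0.12, adjusted p = 0.862). The slope of NUAK2 was -0.21 per 100 mg/kg (SE 0.055, adjusted p = 0.0854), and 0 of 10 slopes passed, against 0.215% of genes (5 unadjusted, against 7.83%). It passed without replicate 1 of vehicle cage group 2, replicate 3 of cage group 4 or replicate 1 of cage group 8.

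The vehicle cage groups of this study overlapped in NUAK2 and were not compared by a test, with 13.3, 14.0, 18.9, 15.3 and 27.3 FPKM in cage group 2 and 24.0, 19.9, 20.4, 24.9 and 28.2 FPKM in cage group 3. Against cage group 3 alone, NUAK2 passed at 200 and at 100 mg/kg, and against cage group 2 alone it did not. F3 was not called against either cage group alone, with 34.3 to 101 FPKM (4 of 5 tumors under 57.3) in cage group 2 and 57.4, 108, 111, 57.3 and 66.8 FPKM in cage group 3.

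F3 after 3-6 h was 27.1 to 78.0 FPKM with 200 mg/kg (median 49.3), 23.3 to 67.7 FPKM with 100 mg/kg (median 35.4) and 19.9 to 109 FPKM with 30 mg/kg (median 42.1), against 34.3 to 111 FPKM with vehicle (median 57.3). Its log2 fold changes were -0.29, -0.64 and -0.48 (adjusted p = 0.885, 0.342 and 0.746), without order by dose. CRIM1 was 255 to 330 FPKM with 200 mg/kg (log2 fold change -0.11, 95% interval -0.21 to -0.016, adjusted p = 0.569) and 268 to 354 FPKM with vehicle, and 9 of 10 treated tumors lay below the vehicle median. NT5E had log2 fold changes of 0.073, -0.14 and -0.29 from the highest to the lowest dose (adjusted p = 0.973, 0.888 and 0.817). DOCK5 differed most at the lowest dose, 30 mg/kg, with 118 to 174 FPKM against 133 to 193 FPKM with vehicle (-0.21, SE 0.060, adjusted p = 0.319). FJX1 (-0.35, adjusted p = 0.505), MYOF (-0.079, adjusted p = 0.655) and ASAP1 (0.17, adjusted p = 0.495) had an unadjusted p below 0.05 at 200 mg/kg, whereas PTPN14 (0.21, adjusted p = 0.742) and ARHGEF17 (-0.089, adjusted p = 0.914) did not.

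**Figure D4:**
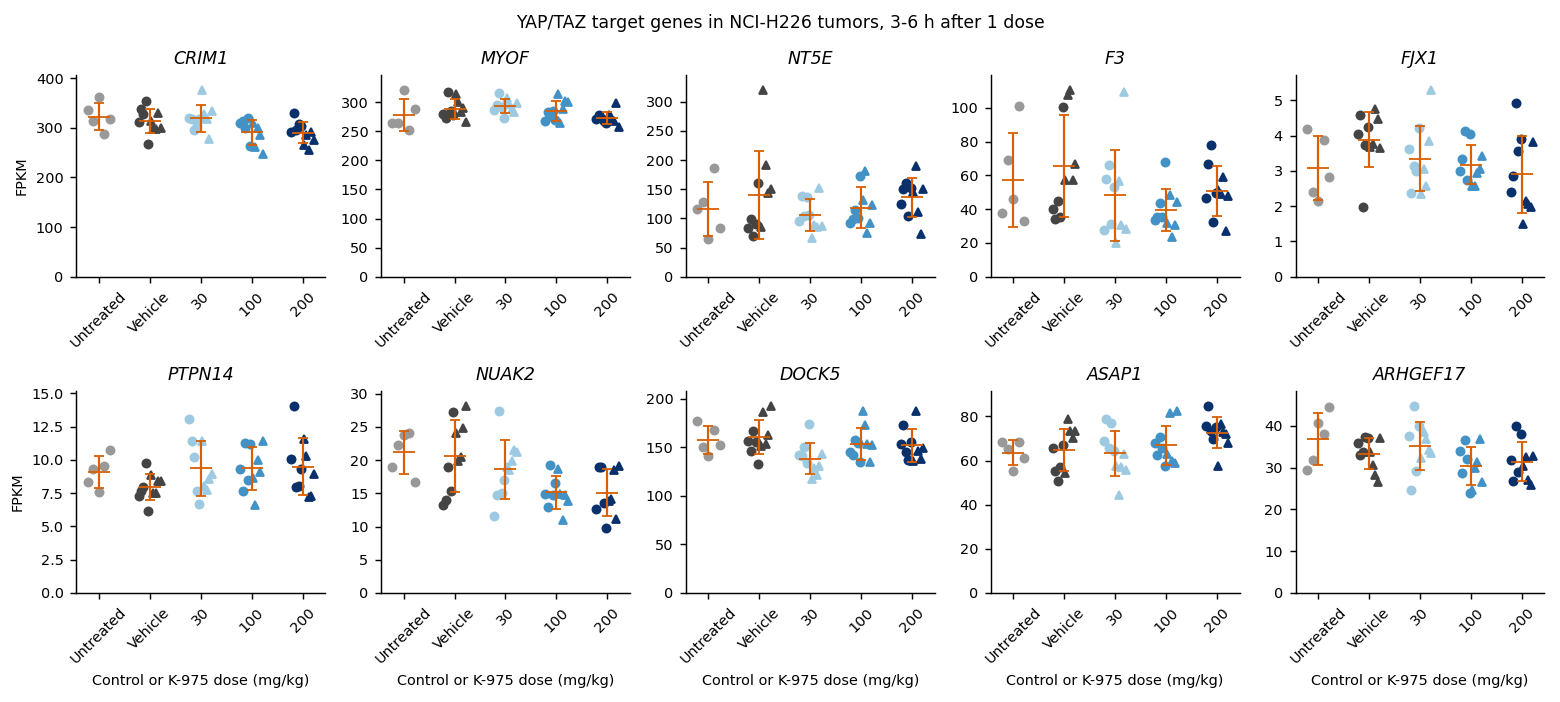
FPKM of the 10 genes in tumors taken at 3-6 h, 1 point per tumor (n = 5 untreated and 10 per other group), with the mean and SD in orange and every axis from 0. Circles stand for cage groups 2, 4, 6 and 8 and the untreated tumors and triangles for cage groups 3, 5, 7 and 9, and NUAK2 at 200 mg/kg (9.77 to 19.1 FPKM) overlaps vehicle (13.3 to 28.2 FPKM).

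Each cage group of the 3-6 h study was also set against the 10 vehicle tumors, and 0 of 10 genes passed in any of the 6. For cage groups 4 and 5 (200 mg/kg) the share of all genes called was 0.00767% and 0.276%, for 6 and 7 (100 mg/kg) 0% and 1.33%, and for 8 and 9 (30 mg/kg) 0% and 0.0307%. At an unadjusted p below 0.05 the counts of the 10 genes were 2 and 3 (4.83% and 9.63% of all genes), 1 and 3 (5.01% and 13.5%), and 0 and 2 (4.93% and 9.26%). CRIM1 was 292, 330.4, 295, 308 and 303 FPKM in cage group 4 and 265, 284, 255, 292 and 276 FPKM in cage group 5. Cage group 5 was just below cage group 4 in every tumor, and this pair was not tested (cage group 5 against vehicle, -0.19, adjusted p = 0.162). FJX1 in cage group 5 was 1.48, 2.15, 2.07, 1.97 and 3.82 FPKM, against 1.99 to 4.74 FPKM with vehicle (-0.58, SE 0.17, adjusted p = 0.129). DOCK5 in cage group 9 was 118, 129, 121, 131 and 144 FPKM (-0.32, SE 0.074, adjusted p = 0.0576). Leaving out vehicle replicate 5 of cage group 2, or replicate 1 or 3 of cage group 3, brought DOCK5 past the threshold there.

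At 1 h no gene of the 10 passed at 200 mg/kg (0% of all genes), 100 mg/kg (0.00767%) or 30 mg/kg (0%), and 0 of 10 slopes did (0%). Unadjusted, 0, 1, 1 and 0 of the 10 genes had a p below 0.05, against 3.34%, 4.97%, 4.38% and 3.41% of all genes. The log2 fold changes at 200 mg/kg lay between -0.25 for FJX1 and 0.10 for NUAK2. F3 was 49.1, 78.2, 68.0 and 60.6 FPKM with 200 mg/kg and 40.4, 82.5, 112, 69.0 and 58.5 FPKM with vehicle. CRIM1 was 342, 312, 307 and 306 FPKM and 328, 320, 317, 307 and 291 FPKM. The groups overlapped for both genes.

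The times were compared through the difference in the effect of 200 mg/kg. Each time was a study of its own, so time cannot be told apart from study. For 24 h against 1 h, 24 h against 3-6 h and 3-6 h against 1 h, 0 of 10 genes passed, where 0.583%, 1.72% and 0% of all genes did. Unadjusted, 3, 3 and 1 of 10 had a p below 0.05 (13.2%, 16.3% and 4.63% of all genes). The effect on F3 at 24 h was lower by a log2 difference of -1.31 than at 1 h (95% interval -2.42 to -0.20, adjusted p = 0.284) and of -1.14 than at 3-6 h (-2.08 to -0.19, adjusted p = 0.196). For NT5E these were -0.84 (adjusted p = 0.41) and -1.11 (adjusted p = 0.107), and for CRIM1 -0.30 (adjusted p = 0.149) and -0.16 (adjusted p = 0.335). A difference in effect between the times is therefore not shown for the 3 genes. Leaving out replicate 2 at 200 mg/kg and 24 h, the tumor high in both genes, brought F3 and NT5E past the threshold for 24 h against 3-6 h.

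The vehicle by itself gave 0 of 10 calls against untreated tumors at 1 h, 3-6 h and 24 h, as for all genes (0% in each), and 0 of 10 genes had an unadjusted p below 0.05, against 4.73%, 4.83% and 4.20% of all genes. The differences ranged from -0.18 for ARHGEF17 at 24 h to 0.49 for NT5E at 1 h (SE 0.30).

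The signature holds 12 other genes. At 24 h after 200 mg/kg 5 of 12 were called, where 7.41% of all genes were, and all 5 were lower: IGFBP3 (log2 fold change -1.80), CCN2 (-1.44), CCN1 (-1.26), GADD45A (-0.56) and AXL (-0.53). At 3-6 h after 200 mg/kg AMOTL2 (-0.53), CCN1 (-0.72) and CCN2 (-0.63) were called, 3 of 12 against 0.0690% of all genes, and the same 3 were called with 100 mg/kg, against 0.430% of all genes. Whether the 12 responded earlier than the 10 was not tested. Of YAP1, WWTR1 and the 4 TEAD genes, 1 of 6 was called at 24 h after 200 mg/kg, against 7.41% of all genes. This was TEAD4 (-0.74, SE 0.12, adjusted p = 3.61e-05), with YAP1 at -0.045 and TEAD1 at 0.057 (adjusted p = 0.825 and 0.798). TEAD2 had a difference of 0.54 (adjusted p = 0.1365). The effect on TEAD4 was also called for 24 h minus 1 h (-0.70, adjusted p = 0.0363) and minus 3-6 h (-0.62, adjusted p = 0.0158), which are comparisons between separate studies. Of all genes 0.583% and 1.72% were called there.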

How the data were processed

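RNA-seq was analysed for 94 NCI-H226 xenograft tumors in 19 groups. The deposited values were FPKM per gene, made by the authors from paired-end reads of probe-enriched libraries. The submitters' processing notes name STAR and GRCh38. Their versions, the quantification tool and the treatment of mouse reads are not given in the sources used here. Of 20555 entries of the table, 316 further entries of 284 gene IDs were left out, the one with the highest mean being kept, and 32 blank cells were read as 0. Starts were converted to count from 1.

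Libraries with fewer than 10000 genes at an FPKM of at least 1 were left out (3 of 94). Genes at 1 FPKM or more in at least 4 libraries (13036) were tested on log2(FPKM + 1) with limma 3.58.1 in R 4.3.3 (eBayes with its trend and robust options). All groups entered 1 model, each with its own mean, and no covariate was used. P-values were Benjamini-Hochberg adjusted over all genes in each comparison (threshold 0.05). Fold changes on this scale understate changes of low genes. At 3-6 h the mean of both cage groups of a dose was compared with that of both vehicle cage groups. The fit was tested on simulated data with genes drawn independently and no effect of cage or study. That test cannot show how the fit behaves where such effects are present. Doses of 1 study were compared with the same vehicle tumors and so are not independent. Replicates were numbered within groups in the order of the samples. Correlations were tested by permutation, exact at 24 h. Figures were drawn with matplotlib 3.10.9.

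The 10 genes, the other lists and the tests were chosen with earlier results of these data known. The genes named are all 10, the other signature genes and factors past the threshold at 24 h or 3-6 h, and markers of cell types (KDR chosen after its values were seen). Alternatives were all 94 libraries, without and with array weights, a pseudocount of 0.1, no filter on low values, quantile normalization, a fit on only the groups compared, untreated tumors or 1 vehicle cage group as control, and leaving out each tumor.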

Additional observations from a re-analysis of the deposited data

Results flagged for a closer look

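Within groups of 4 or 5 tumors, 16 of 190 combinations of a gene and a group held a tumor far from the others (Dixon's test at the 95% level, where chance gives about 1 in 20, or 9.5). In the 24 h study these were F3 at 116 FPKM in replicate 2 with 200 mg/kg (the other 4 at 19.7 to 34.2), NT5E at 203 FPKM in vehicle replicate 4 (the other 3 at 274 to 288), MYOF at 309.7 FPKM in replicate 4 with 30 mg/kg and DOCK5 at 132 FPKM in the same tumor. The 1 h study held untreated replicate 2, which was low in CRIM1 (278 FPKM) and high in F3 (99.5 FPKM) and FJX1 (5.52 FPKM). It also held CRIM1 at 342 FPKM in replicate 2 with 200 mg/kg, FJX1 at 5.29 FPKM in replicate 5 with 30 mg/kg and ASAP1 at 84.8 FPKM in replicate 5 with 100 mg/kg.

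In the 3-6 h study MYOF was 317 FPKM in replicate 3 and F3 101 FPKM in replicate 5 of vehicle cage group 2. NT5E was 173 FPKM in replicate 5 of cage group 6 and 152 FPKM in replicate 4 of cage group 9. In cage group 5, FJX1 was 3.82 FPKM in replicate 5 and DOCK5 188 FPKM in replicate 2.

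The libraries left out for few detected genes held 3 values above every control tumor. Replicate 1 with 30 mg/kg at 24 h had F3 at 2438 FPKM and NT5E at 1129 FPKM, with 7 of the 10 genes at 0. Replicate 1 with 200 mg/kg at 1 h had PTPN14 at 34.3 FPKM.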

How the results depend on the processing

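Of 567 counts under the alternatives, over 24 comparisons, 532 were within 1.5 times the main count. Most of the comparisons had a main count of 0, and 0 against 0 was taken as within, so this share says little about the calls. Leaving out 1 tumor moved the count beyond 1.5 times in 2 of 9 fits at 200 mg/kg and 24 h. For the slope at 24 h it did so in 12 of 17. At 24 h after 200 mg/kg 3 of the 10 genes passed, and 0 with all 94 libraries or with only the groups compared. With array weights on all 94 libraries the count was 4, adding FJX1, where 1975 of 13041 genes passed. Under quantile normalization it was 3, with FJX1 in place of CRIM1 (adjusted p = 0.0699). With all 94 libraries and no weights 0 of 13041 genes passed in that comparison, against 966 of 13036 in 91. The slope at 24 h gave 2 genes, 0 with all 94 libraries, 3 with array weights, and 1 with no filter or with only the groups compared. Leaving out 1 tumor gave 1 to 4 genes at 200 mg/kg and 24 h, the lowest without vehicle replicate 3 or treated replicate 1 (CRIM1 in both), 1 to 3 for the slope at 24 h, 0 to 1 for the slope at 3-6 h and for cage group 9, and 0 to 2 for the effect of 200 mg/kg at 24 h minus 3-6 h. Counts that were 0 became 4 with all 94 libraries at 30 mg/kg and 24 h, where 2960 of 13041 genes were called. That fit includes the library with 702 detected genes. Counts of 0 also became 1 (CRIM1) with untreated controls at 100 mg/kg and 24 h. With array weights they became 2 for 24 h minus 1 h and for 24 h minus 3-6 h, where 524 and 897 of 13041 genes were called. Against vehicle cage group 3 alone they became 1 at 200 and 100 mg/kg and in cage group 7 (NUAK2), and 1 at 30 mg/kg and in cage group 9 (DOCK5). The causes were not tested, and 0 of 94 fold changes of the called genes changed sign. No paired analysis was possible because the labels number no replicates across groups and each tumor came from another mouse. FPKM give no read depth, so a difference of a low gene such as FJX1 cannot be set against its counting error.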
